A study of Mus musculus with 96 samples.

Results

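The events described here are alternative 5' splice sites, places where splicing can end an exon at more than 1 donor and still join it to the same next exon. They are the 1445 of 5437 alternative 5' rows in the authors' splicing table that held a value in at least 20 of 96 single cells. The table has 80855 events of all kinds. The rows belong to 740 genes. They were chosen by how many cells hold a PSI value and not by its size, so the number of cells with a value is not a result, and with 1 sample no comparison below carries a test.

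The series covers single cells with and without ThPOK, a zinc finger transcription factor encoded by Zbtb7b and best known for its part in CD4 T cell development. All 96 cells came from bone marrow of C57BL/6 mice with the genotype ThPOK-/-, were enriched on CD117 beads, and were sorted as GMP, the granulocyte-monocyte progenitors, titled modified GMP. Each cell was captured on a Fluidigm C1 chip and made into a SMARTer cDNA and Nextera XT library of its own. No animal is named in the labels. The cells therefore count as 1 sample, and the SD given with a mean is over cells and not over animals. Wild-type cells were not analysed here, so every group below carries the knockout. The groups are the states the authors gave: proNeu-1 (12 cells), IG2 (31 cells), Multi-Lin-1 (26 cells) and 27 cells without a state.

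A 5' splice site, or donor, is the boundary between the end of an exon and the start of the intron. It is first recognised by U1 snRNP, a particle whose RNA pairs with the last exon bases and the first intron bases, and nearly all introns begin with the letters GT. Where several candidate donors lie close together, the choice between them lengthens or shortens the exon. Percent spliced in (PSI) is the share of the competing junction reads that use the junction examined, given here as a fraction from 0 to 1. In coding sequence, a shift by whole codons adds or removes amino acids, and any other shift changes the reading frame behind it.

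The donor letters of the events that the results turn on are shown first. They are credited to GENCODE M21 transcripts on GRCm38 and printed 5' to 3' on the gene's strand, from the last 3 exon bases of the upstream site to the first 6 intron bases of the downstream site. Capitals mark the first 2 intron bases of each donor. The first 3 pairs lie 4 bases apart, the commonest distance, and the next 2 lie 9 bases apart, a multiple of 3. The others are events whose values per cell or per state are given below.
Rps28 (chr17:33823187-33823199, minus strand): ctgGTggGTaagt
Rbm3 (chrX:8143241-8143253, minus strand): aatGTagGTgaga
Srsf5 (chr12:80945666-80945678, plus strand): ccgGTagGTgagt
Psmd4 (chr3:95033903-95033920, minus strand): aagGTgaaagagGTggat
Srsf7 (chr17:80204116-80204133, minus strand): gagGTatttccaGTatgt
Cops5 (chr1:10037656-10037672, minus strand): ggaGTgaggagGTccct
Rpl38 (chr11:114668607-114668632, plus strand): gctGTgagtgtgctgggcagGTgggg
Cnbp (chr6:87845650-87845679, minus strand): gagGTggttttacctcggatagagGTattt
For pairs that lie farther apart, each donor is shown alone with 3 exon and 6 intron bases.
Gas5 upstream (chr1:161036850-161036858, plus strand): aagGTaagt
Gas5 downstream (chr1:161037162-161037170, plus strand): tggGTaaga
Rbm39 upstream (chr2:156179171-156179179, minus strand): aagGTgaga
Rbm39 downstream (chr2:156178874-156178882, minus strand): aagGTagta
Tmem256 upstream (chr11:69838571-69838579, plus strand): gggGTaggg
Tmem256 downstream (chr11:69838647-69838655, plus strand): acgGTcagg
Hnrnph1 upstream (chr11:50383767-50383775, plus strand): tgtGTaaat
Hnrnph1 downstream (chr11:50383918-50383926, plus strand): tgtGTaaat
Eif4a2 upstream (chr16:23111894-23111902, plus strand): cagGTgaga
Eif4a2 first downstream (chr16:23112455-23112463, plus strand): cgaGTcggt
Eif4a2 second downstream (chr16:23112459-23112467, plus strand): tcgGTattt

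The sorted cells were checked against marker genes. Of 5 primary granule markers 5 reached a TPM (transcripts scaled to a fixed sum per cell) of 1 in at least 50% of cells, and Mpo did so in 100%. Of the markers of other cell types, 4 of 8 for mast cells and basophils, 1 of 12 for erythroid cells and megakaryocytes, 1 of 10 for lymphoid cells, 0 of 9 for mature neutrophils and 0 of 10 for monocytes and dendritic cells reached that share. The lymphoid gene was Nkg7, at 96.9% of cells. Cd79b, Cd3d and Cd8a also reached a TPM of 1, in that falling order and each in fewer than 50% of cells. The remaining 6 lymphoid genes, among them Pax5, Cd3e and Ebf1, were under a TPM of 1 in every cell. The summed TPM of the primary granule markers had a median of 71750 in proNeu-1 (46935 to 93520), 38282 in IG2 (9780 to 68834), 1422 in Multi-Lin-1 (12.9 to 13015) and 755 in cells without a state (2.84 to 15626). In the cells without a state the mast cell and basophil sum was higher than that, with a median of 2781 (0.58 to 78857). There the lymphoid sum (median 1586, 0.89 to 4974) and the erythroid and megakaryocyte sum (median 916, 0 to 17378) were also higher than the primary granule sum. In these cells Nkg7 had a mean TPM of 1661 and Cd79b of 129. The lymphoid sum was not particular to them, with medians of 5441 in proNeu-1, 2961 in IG2 and 1385 in Multi-Lin-1. The sums ran from 23.3 to 1355, 21.5 to 6275 and 0 to 9026 for the mast cell and basophil markers in the same order, from 1.25 to 362, 0 to 1243 and 1.52 to 5676 for the erythroid ones, and from 82.7 to 5797, 0 to 3583 and 0 to 484 for the monocyte ones. The mature neutrophil sum had a median of 309 in proNeu-1 and 0 in IG2, Multi-Lin-1 and the cells without a state, and it reached 78120 in a Multi-Lin-1 cell.

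The cells differed widely in how many of the events they had a value for. A cell held a value for a median of 638 of the 1445 events, from 14 to 1086. By state the median was 861.5 (proNeu-1), 812 (IG2), 517 (Multi-Lin-1) and 390 (no state). Genes detected per cell were ordered the same way, with medians of 4127.5, 3940, 2950 and 2613. Across the 96 cells the rank correlation of events with a value and genes detected was 0.947, a description in which both measures share the library and its depth. Junction read counts are not in the table used here, so the depth behind a single PSI value is unknown.

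The 1445 rows describe 1029 distinct pairs of junctions, because 832 rows (57.6%) have their reverse, with the examined and the competing junction exchanged, among the rows too. The values of such reversed rows summed to 1 within 0.01 in 93.7% of 16653 cases. The sums can differ from 1 because further junctions may compete with both. In 1289 rows (89.2%), from 660 genes and 883 pairs, the donor alone differed and the acceptor was shared, which is the form of a plain alternative 5' site. The other rows moved both ends, in 112 by unequal and in 42 by equal lengths, except the 2 rows of Txnl4a, which differed at the acceptor alone. Among the 1289 rows it was not checked whether both donors end the same exon, and 162 of the 883 pairs lay over 200 bases apart. At the edge of the rule, the 71 rows with values in exactly 20 cells had a median mean PSI of 0.369, with 18 between 0.1 and 0.9. The 100 rows just outside it, with 19 cells, had a median of 0.264, with 31 in that range.

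Most donors lay close together. The distance between both donors had a median of 43 bases over the 1289 rows, with quartiles of 13 and 147 and a range of 1 to 2493. The widest pair was in Gnas, the gene of a stimulatory G protein subunit that has several first exons. Over all 5042 alternative 5' rows of this form, including those with fewer cells, the median was 45 bases. The median between acceptors was 21 in the alternative 3' rows with values in at least 20 cells. These were not limited to rows with a shared donor. Upstream donors of 636 pairs lay between start and stop codon of an annotated transcript, of 220 in a 5' untranslated region (UTR), of 10 in a 3' UTR, and of 17 in a noncoding transcript. The median distance was 39 bases in coding sequence and 90.5 in 5' UTRs.

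A single spacing stood out. Of the 883 pairs, 67 lay exactly 4 bases apart, against 15 at 3 bases, 20 at 5 and 23 at 6. As a share of rows this was 7.76% (95% Clopper-Pearson interval 6.36 to 9.36, counting error only), close to 6.88% over all alternative 5' rows. Among alternative 3' rows, not limited to those with a shared donor, 14% lay 3 bases apart and 9.16% 4 bases apart. The letters printed for Rps28, Rbm3 and Srsf5 show the form, GTNNGT, in which the intron of the upstream donor carries the next GT. Of 2392 annotated donors of the same genes whose intron letters could be read, 36.6% held GTNNGT from the first intron base, on the gene's strand and at that position only.

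Few of the 4-base pairs were used at both sites. Of 67 pairs, 7 had a mean PSI from 0.1 to 0.9 in at least 1 of their rows: Rps28, Rbm3, Srsf5, Zcchc7, Cd37, Gnpnat1 and Rbm7. By the side of 0.5 on which the mean PSI lay, the more used donor was the downstream one in 33 pairs and the upstream one in 34. Both junctions were annotated in GENCODE in 8 pairs, of which 4 were in that intermediate range, and only 1 junction was annotated in 59, of which 3 were.

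**Figure D1:**
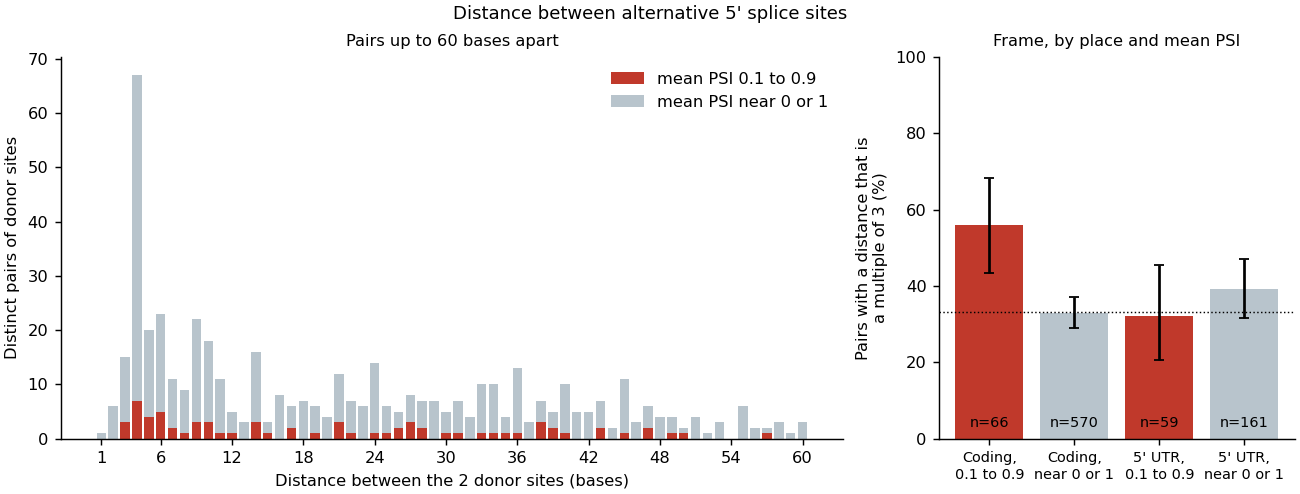
Left, number of distinct donor pairs (y axis) by distance in bases (x axis), for pairs up to 60 bases apart, stacked by whether a row of the pair had a mean PSI from 0.1 to 0.9. The bar at 4 bases holds 67 pairs, 7 of them intermediate. Right, percent of pairs whose distance is a multiple of 3, with 95% Clopper-Pearson intervals (counting error only) and a dotted line at 1 in 3; the coding intermediate pairs are at 56.1%, the other bars between 32.2 and 39.1%.

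Distances that are a multiple of 3 were common among coding pairs used at both sites. Of 66 coding pairs with an intermediate mean PSI, 37 (56.1%, interval 43.3 to 68.3) lay a multiple of 3 bases apart, against 188 of 570 coding pairs (33%, interval 29.1 to 37) with a mean PSI near 0 or 1. In 5' UTRs, where no frame is read, the shares were 19 of 59 (32.2%) for intermediate pairs and 63 of 161 (39.1%) for the others. With both junctions annotated, 34 of 55 intermediate coding pairs (61.8%) lay a multiple of 3 bases apart. Such coding pairs with a mean PSI near 0 or 1 did so in 57 of 183 (31.1%). Over all 1289 rows the share was 36.3%, and over all alternative 5' rows 35.4%. Pairs share genes, so the intervals do not cover that dependence. No check was made for other exons or stop codons between the donors, so a kept frame is not shown.

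Frame-keeping pairs included several RNA-binding and regulatory proteins. Their donors lay 9 bases apart in Psmd4, a ubiquitin receptor of the proteasome, 9 and 24 in Srsf7, a serine and arginine rich splicing factor, and 21 in Cnbp, a zinc finger nucleic acid binding protein. They lay 27 bases apart in Smarcb1, a core subunit of the SWI/SNF chromatin remodeller, and in Ezh2, the methyltransferase of the Polycomb complex PRC2. The distance was 33 in Hmga1, an architectural chromatin protein, 39 in Hnrnpc, a nuclear RNA-binding protein, and 12 in Celf2, a splicing regulator.

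Most rows were near all or nothing on average. The mean PSI was under 0.1 in 696 rows, over 0.9 in 517 and between in 232 (16.1%, 133 genes). It was exactly 0 in 265 rows and exactly 1 in 100. Alternative 3' rows with values in at least 20 cells were intermediate in 16.3%, cassette exons in 13.5%, retained introns in 7.41%, and all events with at least 20 cells in 11.3%. In 737 of 1289 rows (57.2%, interval 54.4 to 59.9) the downstream donor was the more used. It gives the longer exon where both donors end the same exon, which was not checked.

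Use of a donor went with its annotation. In the 418 rows whose examined junction is absent from GENCODE M21 while the competing one is present, the median mean PSI was 0, with 200 rows at exactly 0 and 11 intermediate. In the 273 rows with the opposite arrangement the median was 0.983. With both junctions annotated (598 rows) it was 0.213, and 180 rows (30.1%) were intermediate. Counted as pairs, 112 of 384 with both annotated (29.2%) and 21 of 499 with 1 annotated (4.21%) had an intermediate row.

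**Figure D2:**
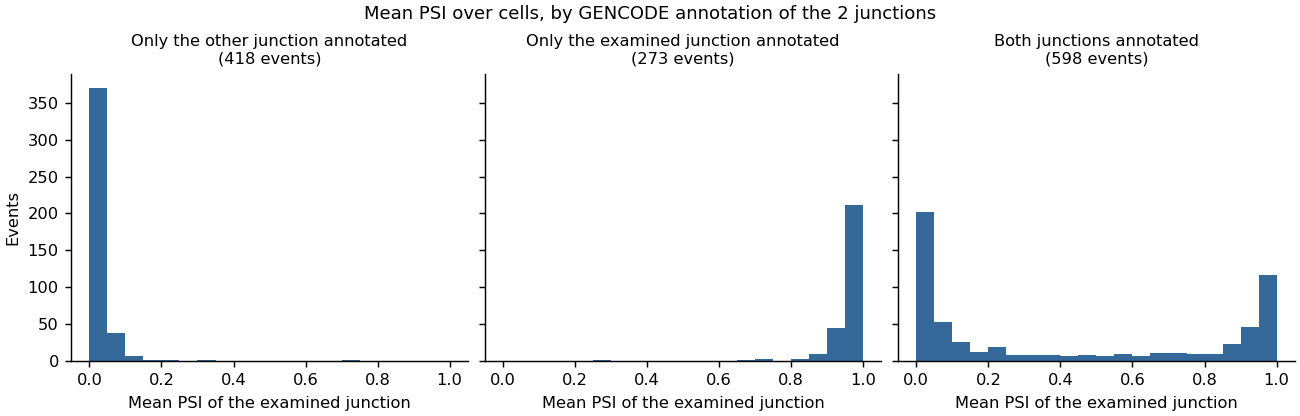
Number of events (y axis) by mean PSI of the examined junction over cells (x axis), for the 1289 events that differ in the donor alone. Events with an unannotated examined junction sit at the left end (median 0), those with an unannotated competitor at the right end (median 0.983), and the 598 events with both annotated fill both ends and the middle.

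The exceptions were few. Among the 418 rows with an unannotated examined and an annotated competing junction, the highest mean PSI was 0.704 (n = 23 cells), at a donor of Zmat5, a component of the minor spliceosome, 9 bases upstream of the annotated donor in the 5' UTR. The next was 0.305 (n = 60) at a donor of Eif4a2, an RNA helicase of translation initiation. It lies 4 bases beyond another annotated donor, as the letters above show. All other such rows were at 0.206 or lower.

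The donor letters could be read where an annotated transcript carries them as exon. They were known for the upstream site of 755 pairs and the downstream site of 418. Of these, 724 (95.9%) and 405 (96.9%) began the intron with GT, and 30 and 12 with GC. In 417 pairs with both donors known, each was compared with the consensus CAGGTAAGT, on the gene's strand and at that position only. The donors differed in number of matching letters in 285 pairs. By the side of 0.5 on which the mean PSI lay, the better match was the more used in 187 (65.6%, interval 59.8 to 71.1). The share was 60.4% of 187 pairs differing by 1 letter, 73.5% of 68 differing by 2, and it was 24 of 30 among those differing by at least 3. Among intermediate pairs it was 20 of 39.

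The intron start GTAAGT stood at 41 (9.83%) of the more used and 10 (2.40%) of the less used donors, and at 10.2% of the 2392 annotated donors that could be read. The full 9 letters were at 0 of the 417 more used donors and 0.627% of the annotated ones. In Gas5 the pattern ran the other way: the upstream donor printed above, with GTAAGT, matched 8 letters and the downstream one 6, and the downstream one had the higher mean PSI.

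Several events had values in nearly every cell. Gas5, a noncoding host gene of small nucleolar RNAs, had values in all 96 cells. The PSI of its downstream donor, 312 bases from the upstream one, ran from 0 to 1 with a median of 0.576 and a mean of 0.568 ± 0.247 (SD, n = 96 cells), and 90 cells lay strictly between 0 and 1, so they held reads of more than 1 Gas5 junction. The upstream donor had a mean of 0.211 ± 0.163, and both do not sum to 1 because further junctions compete.

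Rps28, a protein of the small ribosomal subunit, was used at both donors in nearly every cell. The PSI of its downstream donor, in the 3' UTR, ran from 0.172 to 1 with a median of 0.633 and a mean of 0.642 ± 0.161 (n = 95), and that of the upstream donor averaged 0.355 ± 0.161. Of 95 cells, 93 lay between 0 and 1. Its state means were 0.614 ± 0.104 in proNeu-1 (n = 12), 0.647 ± 0.128 in IG2 (n = 31) and 0.667 ± 0.186 in Multi-Lin-1 (n = 25), closer together than the SD within any of them.

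Rpl38, of the large subunit, has 2 donors 17 bases apart in its 5' UTR. The upstream one had a PSI from 0.0323 to 1 with a median of 0.601 and a mean of 0.602 ± 0.216 (n = 93), and the downstream one a mean of 0.376 ± 0.211. Rpl29, also of the large subunit, has donors 63 bases apart, with means of 0.427 ± 0.348 upstream and 0.526 ± 0.361 downstream (n = 76), and its downstream intron begins with GC. Other ribosomal events were used at 1 site: Rpl10 at 0.9997 ± 0.0015 (n = 95) and Rps9 at 0.0143 ± 0.0480 (n = 94). Of 37 rows in 22 genes named Rpl or Rps, 6 rows of 3 genes were intermediate. These genes have near-identical processed copies, and how reads with several matches were treated is not given, so their values are uncertain.

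Among splicing factors, 16 of 64 listed genes had an event, and 16 of their 34 rows (47.1%) were intermediate, in 8 genes, beside 16.1% of all rows. The list was chosen with earlier results of these data known, and its genes had values in more cells (median 64) than all rows (median 34). Srsf7 uses 3 annotated donors before 1 acceptor. Its middle donor had a mean PSI of 0.516 ± 0.333, the donor 9 bases downstream 0.273 ± 0.267, and the donor 24 bases upstream 0.160 ± 0.274 (n = 79 each). The middle donor ran from 0 to 1 with a median of 0.556, and 64 of 79 cells lay between 0 and 1. A further, unannotated donor of Srsf7, 72 bases upstream of the middle one, was at a mean PSI of 0.0081.

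Srsf5, of the same family, favoured the downstream of 2 donors 4 bases apart in its 5' UTR, at 0.716 ± 0.380 against 0.153 ± 0.299 for the upstream one (n = 64). Both donors match 7 letters of the consensus. Hnrnpc used the upstream of 2 coding donors 39 bases apart at 0.751 ± 0.338 and the downstream one at 0.230 ± 0.325 (n = 79), and a second pair 693 bases apart in its 5' UTR at 0.617 ± 0.381 upstream (n = 75). Hnrnpf had 0.242 ± 0.345 at the downstream of 2 donors 369 bases apart (n = 63). Hnrnph1, which binds runs of G, had 0.801 ± 0.333 at the downstream of 2 donors 151 bases apart, and both donors printed above have the same 9 letters (n = 45).

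Snrpa, the U1 protein that binds a stem loop of the U1 RNA, itself had 2 donors 3 bases apart in its 5' UTR, with 0.678 ± 0.432 at the downstream one (n = 44). Celf2 had 0.474 ± 0.485 at the upstream of 2 donors 12 bases apart (n = 24), with 9 cells at 0 and 10 at 1. Rbm3, a cold-induced RNA-binding protein, had 0.749 ± 0.345 at the upstream of 2 donors 4 bases apart in its 3' UTR (n = 81), with a median of 0.980 and 39 cells between 0 and 1. Listed splicing factors whose single event was at 1 site included Srsf3 and Mbnl1, both at a mean PSI of 0, and Clk1, a kinase of the serine and arginine rich factors, at 0.919.

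Genes that make up or assist U1 were read in 43.8 to 99.0% of cells. Luc7l2, a U1-associated protein, reached a TPM of 1 in 99.0% of cells, Snrnp70, a core protein of U1, in 80.2%, and Tia1, which helps U1 at weak donors, in 43.8%. On the log2(TPM + 1) scale Snrnp70 averaged 3.29 ± 1.60 in proNeu-1, 3.65 ± 1.57 in IG2 and 2.80 ± 2.26 in Multi-Lin-1, and Tia1 1.48 ± 2.77, 2.25 ± 2.83 and 2.87 ± 3.25 in the same order. These differences are smaller than the SD over cells.

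Chromatin genes on the list gave 23 rows in 11 of 41 genes, of which 10 (43.5%) were intermediate, in 5 genes: Hmga1, Smarcb1, Ezh2, Nsd1 and Cbx1. The coding pair of Hmga1 had 0.589 ± 0.386 at the upstream donor and 0.377 ± 0.379 at the downstream one (n = 54), and its 5' UTR pair, 38 bases apart, 0.765 ± 0.320 upstream. Ezh2 had 0.714 ± 0.445 at its downstream donor (n = 20). Nsd1, a histone methyltransferase, had 0.873 ± 0.317 at the upstream of 2 donors 1361 bases apart (n = 29), with an unannotated competing junction.

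Translation, energy and protein turnover genes gave a mixed picture. Translation genes on the list gave 12 intermediate of 35 rows (34.3%), 6 of them in Gas5 and 3 in Eif4a2. Of 35 rows of proteasome and ubiquitin genes 3 (8.57%) were intermediate, in Psmd4 and in Psmb9, an immunoproteasome subunit. Psmd4 split almost evenly, with 0.569 ± 0.415 at the upstream and 0.431 ± 0.415 at the downstream donor (n = 49). Of 41 mitochondrial and metabolic rows 4 (9.76%) were intermediate, among them Atp5g3, a subunit of the ATP synthase ring, at 0.755 ± 0.353 for the upstream of 2 donors 10 bases apart (n = 55). Pkm, the pyruvate kinase gene, had 0.811 ± 0.138 at the downstream of 2 donors 539 bases apart (n = 69). Whether these donors end the same exon or different exons was not checked, so the value may reflect a choice between exons.

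Cnbp was the coding pair with an intermediate mean and values in most cells. Its downstream donor ran from 0 to 1 with a median of 0.605 and a mean of 0.598 ± 0.309 (n = 83), the upstream donor, 21 bases before it, averaged 0.384 ± 0.307, and 78 cells lay between 0 and 1. Another donor, 18 bases upstream of the downstream one, was at 0.0146 ± 0.0530.

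The listed myeloid genes had 0 intermediate events, over few rows. Of 16 listed granule genes, 4 gave 12 rows, all near 0 or 1. Mpo, myeloperoxidase, was at 0.946 at the downstream of 2 donors 5 bases apart (n = 76), and Prss57, a granule serine protease, ran from 0 to 0.0459 in 4 rows. Of 51 listed myeloid transcription factors and receptors, 5 gave 7 rows, among them Myb, a transcription factor of progenitors, at exactly 1 (n = 31). Cell cycle genes gave 8 rows, 0 of them intermediate. Against the 16.1% of all rows these lists are too short to be set apart. Outside the lists, Meis1, a transcription factor of progenitors, had an intermediate mean PSI of 0.236 at a pair 399 bases apart, and was chosen after its value was seen. The lists for mast cells, erythroid cells, lymphoid cells, mature neutrophils and monocytes gave 0 rows.

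**Figure D3:**
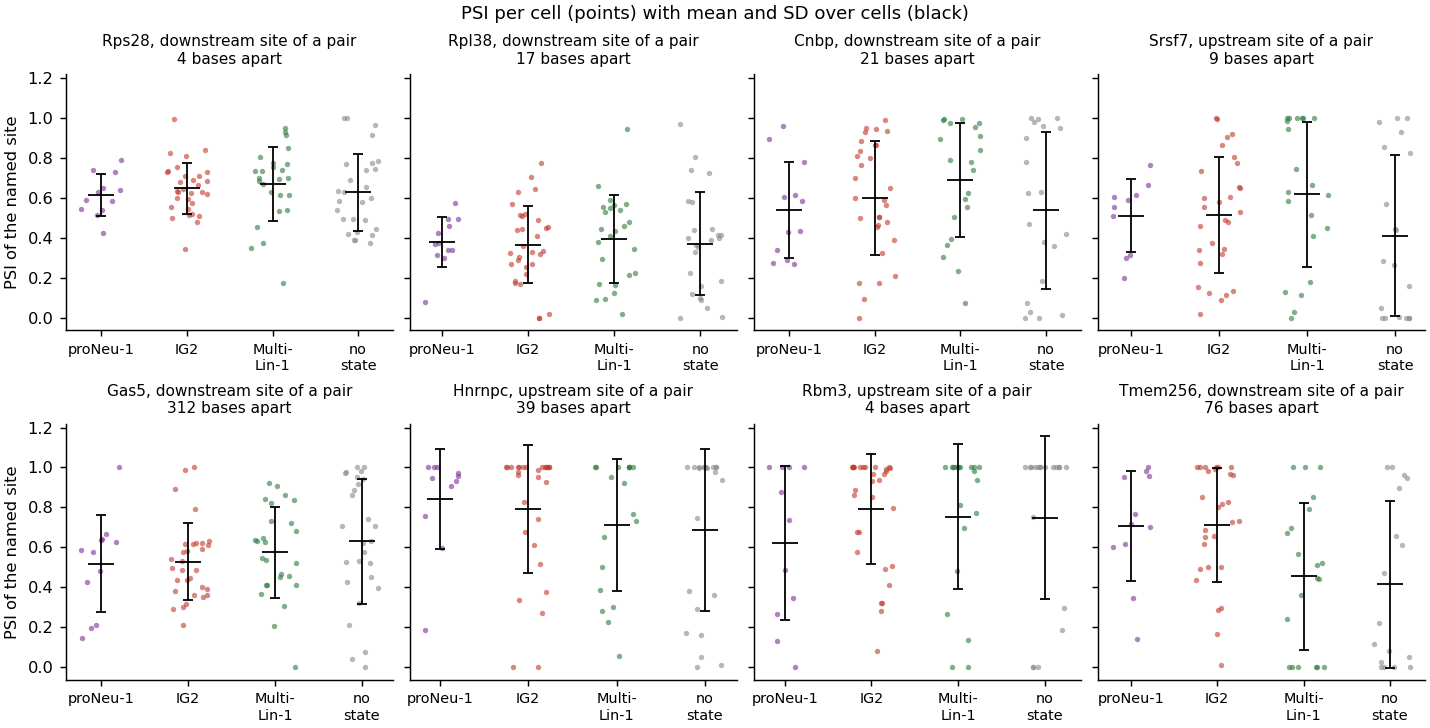
PSI of the named donor (y axis, fraction) in each cell (points) by state (x axis), with the mean and SD over cells in black; SD bars can pass 1. Rps28 and Rpl38 form single clouds in every state, while Gas5 spreads widely in every state, and from 0 to 1 in the cells without a state. Rbm3 and Hnrnpc have many cells at exactly 1. Tmem256 has lower values in Multi-Lin-1 (mean 0.455) than in proNeu-1 (0.708) or IG2 (0.713).

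A mean between 0 and 1 did not say that single cells were mixed. Over the 1445 rows, 87.6% of 59101 PSI values were exactly 0 or exactly 1. Even in the intermediate rows, values of exactly 0 or 1 made up 81.6% where the gene was under a TPM of 10 in that cell, 75.1% at 10 to 100, 60.4% at 100 to 1000 and 31.5% at 1000 or more. The part of read number in this was not tested, since junction counts are not in the table. In Supt20, a subunit of the SAGA complex, 26 of 28 cells were at 0 or 1 around a mean of 0.586, while in Rps28 2 of 95 were.

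**Figure D4:**
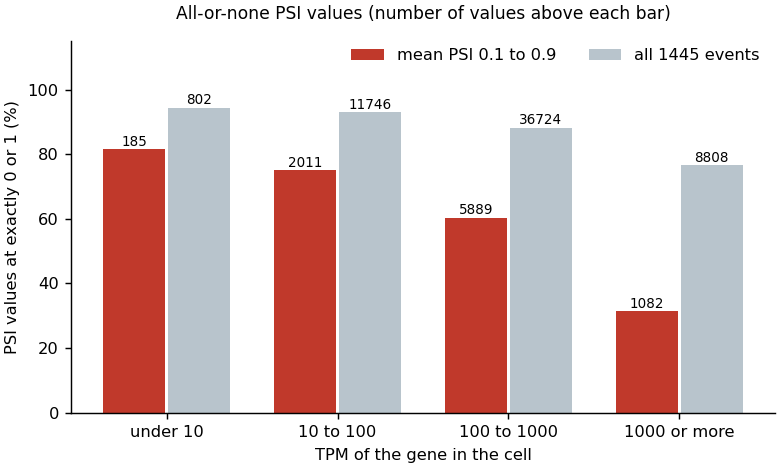
Percent of PSI values that are exactly 0 or exactly 1 (y axis) by TPM of the gene in the same cell (x axis), for rows with a mean PSI from 0.1 to 0.9 and for all rows, with the number of values above each bar. The share falls to 31.5% for intermediate rows at a TPM of 1000 or more, against 81.6% under 10.

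Between states most events differed little. A row was counted as different where the mean PSI differed by at least 0.2 with at least 6 cells in each state. Between IG2 and Multi-Lin-1, 42 of 969 rows (4.33%) were so counted, in 30 genes, beside 2.67% of all events of the table. Between proNeu-1 and IG2 it was 21 of 905 (2.32%, beside 2.18%), in 13 genes, and between proNeu-1 and Multi-Lin-1 27 of 718 (3.76%, beside 2.62%), in 19 genes. The intervals were 3.14 to 5.81%, 1.44 to 3.53% and 2.49 to 5.42% in that order (counting error only, with rows of 1 gene not independent), and the second and the third include their backgrounds. The comparisons share cells, so they are not independent of each other.

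These counts changed with how rows and cells were taken. With 1 event per gene, 13 of 509 rows (2.55%, beside 2.38% of all events taken the same way) differed between IG2 and Multi-Lin-1, 8 of 472 (1.69%, beside 1.14%) between proNeu-1 and IG2, and 10 of 387 (2.58%, beside 1.36%) between proNeu-1 and Multi-Lin-1. In cells with at least 3000 genes detected, IG2 and Multi-Lin-1 differed in 9 of 424 rows (2.12%, beside 1.73%), proNeu-1 and IG2 in 16 of 860 (1.86%, beside 2.06%), and proNeu-1 and Multi-Lin-1 in 8 of 381 (2.1%, beside 1.84%). With at least 10 cells in each state, IG2 and Multi-Lin-1 differed in 14 of 467 rows (3%, beside 1.49%), proNeu-1 and IG2 in 0 of 346 (beside 0.32%), and proNeu-1 and Multi-Lin-1 in 7 of 289 (2.42%, beside 0.911%). The share of alternative 5' rows that differed between IG2 and Multi-Lin-1 was thus close to that of all events with 1 event per gene or in the cells with more genes.

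The median size of a difference was 0.0123, 0.0095 and 0.0058 in the same 3 comparisons, and 70.2, 74.3 and 71.6% of rows lay under 0.05 apart. Cell names carry a number, 078 or 079, whose meaning is not given. Within cells numbered 078, IG2 and Multi-Lin-1 differed in 12 of 328 rows (3.66%, beside 2.41% of all events), and within those numbered 079 in 24 of 429 (5.59%, beside 1.86%). For proNeu-1 against IG2 the counts were 6 of 222 (2.7%, beside 1.07%) and 13 of 281 (4.63%, beside 1.14%) in the 2 sets, and for proNeu-1 against Multi-Lin-1 8 of 172 (4.65%, beside 1.87%) and 7 of 225 (3.11%, beside 1.85%). The states differ in genes detected and in marker levels, as given above, and the part of either in these differences was not tested.

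Tmem256, a small transmembrane protein gene, differed with values in many cells. Its downstream donor had a median of 0.716 in proNeu-1 (0.142 to 1), 0.767 in IG2 (0.0120 to 1) and 0.479 in Multi-Lin-1 (0 to 1). The means were 0.708 ± 0.275 (n = 11), 0.713 ± 0.285 (n = 28) and 0.455 ± 0.369 (n = 20). IG2 minus Multi-Lin-1 was 0.258, with 0.217 in cells numbered 078 and 0.275 in those numbered 079, an agreement that the choice of named events partly fixes. The cells of all 3 states overlapped over nearly the whole range.

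Rbm39, a splicing factor related to U2AF65, ran the other way. Its downstream donor, 297 bases from the upstream one, had a median of 0 in proNeu-1 (0 to 0.216), 0.0047 in IG2 (0 to 0.617) and 0.283 in Multi-Lin-1 (0 to 0.923). The means were 0.0563 ± 0.0862 (n = 11), 0.104 ± 0.169 (n = 28) and 0.325 ± 0.319 (n = 20). IG2 minus Multi-Lin-1 was -0.221, and proNeu-1 minus Multi-Lin-1 was -0.269. The mean TPM of Rbm39 was 120 in proNeu-1, 169 in IG2 and 124 in Multi-Lin-1. The highest PSI values were in Multi-Lin-1, and the lower values of all 3 states overlapped.

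In Smarcb1 the mean PSI of IG2 differed from that of both other states, which had few cells with a value. The upstream donor lies 27 bases before the downstream one. Its mean PSI was 0.750 ± 0.396 in proNeu-1 (n = 7), 0.375 ± 0.444 in IG2 (n = 17) and 0.833 ± 0.408 in Multi-Lin-1 (n = 6). The downstream donor ran the other way, at 0.250 ± 0.396, 0.566 ± 0.457 and 0.167 ± 0.408. IG2 minus Multi-Lin-1 was -0.458 and proNeu-1 minus IG2 was 0.375 for the upstream donor. The SD is about as large as the difference, and each state held cells at 0 and at 1.

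Cops5, the catalytic subunit of the COP9 signalosome, has 3 donors before 1 acceptor, and the letters above show the middle and the downstream one. The middle donor was at 1 in all 12 IG2 cells with a value, with a mean of 0.880 ± 0.318 in proNeu-1 (n = 7) and 0.625 ± 0.518 in Multi-Lin-1 (n = 8). The donor 8 bases downstream of it was used in Multi-Lin-1 at 0.250 ± 0.463, and was at 0 in every proNeu-1 and IG2 cell with a value. Psmb9 had 0.701 ± 0.340 (n = 8), 0.812 ± 0.329 (n = 19) and 0.418 ± 0.436 (n = 7) at the upstream of 2 donors 192 bases apart, in the order proNeu-1, IG2 and Multi-Lin-1. Both genes rest on fewer than 10 cells in Multi-Lin-1. The competing junction of the Psmb9 row is unannotated.

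Eif4a2 has 2 neighbouring downstream donors whose means were not ordered alike over the states. The first downstream donor, 561 bases from the upstream one, averaged 0.104 ± 0.293 in proNeu-1 (n = 8), 0.244 ± 0.422 in IG2 (n = 27) and 0.402 ± 0.498 in Multi-Lin-1 (n = 12). The second, 4 bases farther and unannotated, averaged 0.271 ± 0.454 in proNeu-1, 0.357 ± 0.457 in IG2 and 0.116 ± 0.296 in Multi-Lin-1. The median was 0 at both donors in all 3 states, so the means rest on a minority of cells at or near 1.

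In Hmga1 the upstream donor of the coding pair averaged 0.434 ± 0.317 in proNeu-1 (n = 12), 0.583 ± 0.354 in IG2 (n = 25) and 0.727 ± 0.467 in Multi-Lin-1 (n = 11). Its mean TPM was 197 in proNeu-1, 168 in IG2 and 55.9 in Multi-Lin-1, and the part of that level in the PSI was not tested. Ap2m1, a clathrin adaptor subunit, averaged 0.652 ± 0.334 in proNeu-1 (n = 8), 0.491 ± 0.445 in IG2 (n = 19) and 0.210 ± 0.314 in Multi-Lin-1 (n = 10). IG2 minus Multi-Lin-1 was -0.128 in cells numbered 078 and 0.598 in those numbered 079, so this difference did not hold in both. This row moves the acceptor as well, and its competing junction is unannotated.

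**Figure D5:**
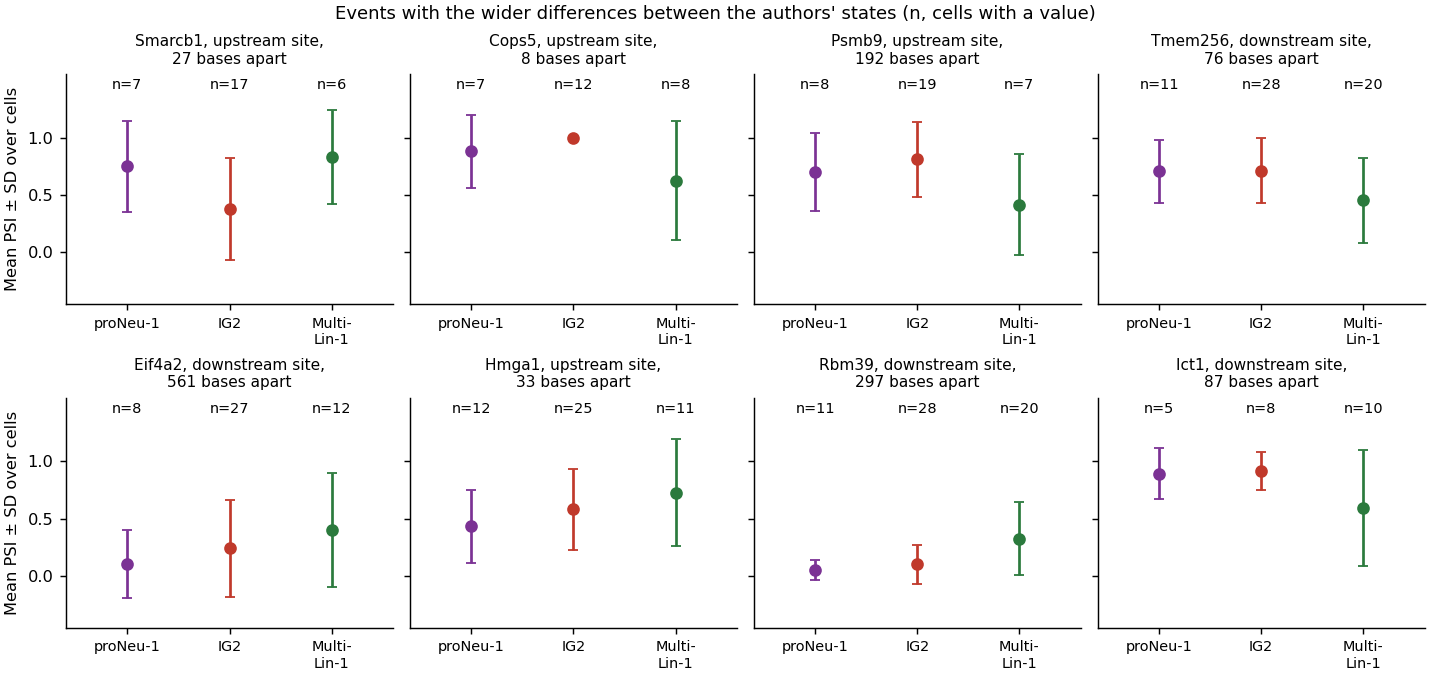
Mean PSI of the named donor (y axis, fraction) with SD over cells by state (x axis), with the number of cells with a value above each point. IG2 is lowest in Smarcb1 (0.375) and at 1 in Cops5, and Multi-Lin-1 is lowest in Psmb9 (0.418), Tmem256 (0.455) and Ict1 (0.591) and highest in Eif4a2 (0.402), Hmga1 (0.727) and Rbm39 (0.325).

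Smaller sets of cells carried the remaining wide differences. Against Multi-Lin-1, IG2 was higher at the downstream donors of Ict1, a mitochondrial ribosome rescue factor (0.918 ± 0.167, n = 8, against 0.591 ± 0.504, n = 10), and of Anapc11, a subunit of the anaphase promoting complex (0.851 ± 0.233, n = 16, against 0.608 ± 0.506, n = 8). IG2 was lower than Multi-Lin-1 at the downstream donor of Nfu1, an iron-sulfur cluster protein, 3 bases from the upstream one (0.0757 ± 0.227, n = 23, against 0.277 ± 0.455, n = 14). Against IG2, proNeu-1 was higher at the upstream donor of Cwc15, a spliceosome protein (0.311 ± 0.483, n = 6, against 0.0196 ± 0.0735, n = 14). Against Multi-Lin-1, proNeu-1 was lower at the downstream donor of Immt, a protein of mitochondrial cristae (0.0173 ± 0.0425, n = 6, against 0.356 ± 0.492, n = 8). The cells of both states overlapped in each of these genes.

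Atp6v0b, a subunit of the vacuolar proton pump, had 0.923 ± 0.176 in proNeu-1 (n = 12), 0.902 ± 0.233 in IG2 (n = 20) and 0.693 ± 0.479 in Multi-Lin-1 (n = 13) at the downstream of 2 donors 10 bases apart. The competing junction of the Atp6v0b row is unannotated. The donors of Gas5 and Pkm had state means closer together than the SD within a state. Gas5 averaged 0.517 ± 0.243 in proNeu-1 (n = 12), 0.528 ± 0.193 in IG2 (n = 31) and 0.576 ± 0.228 in Multi-Lin-1 (n = 26), and Pkm 0.812 ± 0.115 (n = 12), 0.826 ± 0.0882 (n = 30) and 0.807 ± 0.128 (n = 14) in the same order.

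A small class of rows is not a choice of donor alone. In 42 rows of 40 genes both ends of the junction moved by the same length, in 38 of them by 1 to 4 bases and in 23 by 1 base. The competing junction was unannotated in 40, and the mean PSI was over 0.9 in 37. Where the letters could be read (34 rows), the spliced RNA had the same sequence for both junctions in 15, among them the events of H3f3b, a replacement histone gene, Rpl26, Rps27a and Rpl6. For these the 2 junctions cannot be told apart from the spliced letters.

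Ubb showed a related form. It encodes head-to-tail ubiquitin repeats in 1 coding exon, and 2 rows place unannotated junctions inside that exon. Shifted by 228 bases, the exon matched itself at 83% of 846 bases, against 26.9% at 227 and 25.9% at 229 bases. In the first row, where the competing junction lies 228 bases away, the examined junction had a PSI of 0 in all 94 cells. In the other row the mean was 0.972. These rows passed the rule on cells and are counted among the 1445.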

How the data were processed

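Splicing was measured in 96 single cells. The authors' deposited table gives PSI per event as a fraction between 0 and 1, with no junction read counts. Expression was deposited by the authors as log2 values, named RSEM TPM in the deposited table for 23955 genes, and was read as log2(TPM + 1). Per the submitters' processing notes, the tools Bowtie2, RSEM and STAR and the builds mm9 and mm10 were used, with no word on which served which table. Aligner settings, strand and the handling of reads with several matches are not given in the sources used here. The coordinates were matched to GENCODE M21 (GRCm38), where 1440 of 1445 rows lay on the strand of their gene and 69.4% of examined junctions were annotated. Values for 1142 columns and 511 state entries of cells that no label maps were not used.

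Distances came from the 2 donor coordinates of a row. Means and SDs are over cells with a value. A donor was counted as the more used where the mean PSI of its junction was over 0.5, or that of the competing junction under 0.5. Clopper-Pearson intervals (95%) cover counting error only, and PCR reads without molecular identifiers are not independent molecules. A gene was detected at a TPM of 1 or more. A location is that of the upstream donor in annotated transcripts with either junction, coding taking precedence. Donor letters came from GENCODE transcripts, so only donors whose intron letters are exonic in another transcript could be read. Genes were named by rule: 1 event per gene, from the events with values in most cells, intermediate events in the gene lists, up to 6 of the widest state differences in each direction with 1 sign in both cell numbers, and 3 intermediate events per distance class. Reverse and further rows of those genes, and the rows of Rpl38, Tmem256, Rbm39, Psmb9, Cops5, Gnas and Psmd4, the coding pair of Hmga1, Mpo, Myb, Zmat5 and the genes of equal shifts, were chosen after their values were seen. The members and gene lists were chosen with earlier results of these data known. The script was tested on simulated data. Tables were handled with pandas 2.3.3 and NumPy 2.4.6 in Python 3.11.15, intervals computed with SciPy 1.17.1 and figures drawn with matplotlib 3.10.9.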

Additional observations from a re-analysis of the deposited data

How the results depend on the processing

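Of 70 recomputed values, 35 moved. The other 35 lay within the 95% interval of the reported share or median or, for counts, within 1.5 times the reported count. The number of events was 2620 with at least 10 cells, 564 with at least 40 and 740 with 1 event per gene. The intermediate share was 22.3% with at least 10 cells, 12.2% with 1 event per gene and 29.4% with bounds of 0.05 and 0.95. The share of values at 0 or 1 was 89.1% with at least 10 cells, 83.9% with at least 40, 89.4% with 1 event per gene and 87% in cells with at least 3000 genes. The downstream donor was the more used in 53.5% of rows with at least 40 cells. Counts of rows at least 0.2 apart, in the order IG2 against Multi-Lin-1, proNeu-1 against IG2 and proNeu-1 against Multi-Lin-1, were 13, 8 and 10 with 1 event per gene, 12, 6 and 8 in cells numbered 078, and 24, 13 and 7 in cells numbered 079. They were 14, 0 and 7 with at least 10 cells per state and 11, 5 and 4 at a difference of 0.3. With at least 40 cells, the first 2 were 15 and 6. In cells with at least 3000 genes the first and the last were 9 and 8. Counting each pair of junctions once, an alternative chosen after seeing the data, gave 24, 13 and 16, an intermediate share of 14.2% and 88.1% of values at 0 or 1. Apart from the minimum of 10 cells, which adds rows, and the changed bounds and threshold, these settings use fewer rows or cells by construction. Depth per value is unknown. No paired analysis was possible because the 96 cells form 1 group, and no replicate could be left out.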
